A study of Caenorhabditis elegans with 2 samples.

Results

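LIN-13, a C. elegans protein with many zinc fingers, belongs with the worm Retinoblastoma protein to the synMuv B regulators of chromatin. Its occupancy was examined at 10 genes of DNA replication licensing and of the replication fork: mcm-2, mcm-3, mcm-4, mcm-5, mcm-6, mcm-7, pcn-1, cdc-6, cdt-1 and orc-2. They were chosen by name from 19973 nuclear protein-coding genes, with no rule on peak values but with earlier results of these data known. All 10 were found in the annotation. The material was whole L2 larvae of mixed sex from strain OP49, a single line. Its animals carry the allele unc119(ed3) and the transgene wgIs49, which supplies lin-13 joined to the tag TY1 EGFP FLAG, together with unc119. ChIP-seq, which sequences the DNA recovered with a protein, was done in 2 biological replicates, and there was no second condition. The data are ranked lists of enriched intervals (entries), each with a summit: 30000 entries for each replicate and for the pooled replicates, and 3040 peaks that the authors kept in a thresholded list. Signal was used only to rank entries, rank 1 being the strongest, and depth is unknown because read counts are not part of the lists. In whole animals, binding in a few cells and weak binding in many cannot be told apart.

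Before S phase, the origin recognition complex, CDC-6 and CDT-1 load the ring-shaped MCM helicase onto DNA, which licenses an origin to fire once. At the fork the MCM ring unwinds DNA, and PCNA, the sliding clamp, holds the polymerases in place. In animals many genes of this machinery are targets of E2F and of the DREAM complex, in which E2F-DP and a Retinoblastoma-family protein act with LIN-54, a protein that binds the CHR element.

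A thresholded peak had its summit in the promoter window, 1000 bp upstream to 200 bp downstream of the annotated start, at 4 of the 10 genes: pcn-1, mcm-4, mcm-7 and cdt-1. Over all protein-coding genes the share was 11.6%. The other 6 genes, mcm-2, mcm-3, mcm-5, mcm-6, cdc-6 and orc-2, had none, so 2 of the 6 MCM subunit genes carried a peak and the other 4 did not. With only 10 genes chosen by name, and with earlier results of these data known, these counts are a description and carry no test. The median pooled rank was 1049 for the 4 genes with a peak and 1240.5 for all 2312 protein-coding genes with one.

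The promoters of pcn-1, mcm-3, mcm-4, mcm-5 and mcm-7 share an arrangement of short sequence words, an E2F word with a CHR word close by, and these genes include both ones with a thresholded peak and ones without. It is shown here for all but mcm-4, and mcm-6 is added as a promoter with E2F words that lacks the arrangement. The 300 bases from 250 bp upstream of the annotated start were searched on both strands for the E2F words TTTCCCGC, TTTGGCGC, TTTCGCGC and TTTGCCGC and for the CHR words TTTGAA and TTCGAA. In the stretches below, read 5′ to 3′ in the direction of the gene from the NCBI RefSeq genome WBcel235, capitals mark E2F and CHR words that lie whole within the stretch. The mcm-6 stretch has an E2F word alone in capitals, since its nearest CHR word runs over the left edge. GCGCGAAA and GCGCCAAA are E2F words on the other strand, and TTCAAA is a CHR word on the other strand. The first and the fifth come from genes with a thresholded promoter peak, the others from genes without one.
pcn-1, IV:4049599-4049666, minus strand: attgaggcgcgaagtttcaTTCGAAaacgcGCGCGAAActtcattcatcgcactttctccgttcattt
mcm-3, V:15059706-15059773, minus strand: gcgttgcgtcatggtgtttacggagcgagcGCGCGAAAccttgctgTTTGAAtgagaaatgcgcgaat
mcm-5, III:4291423-4291490, minus strand: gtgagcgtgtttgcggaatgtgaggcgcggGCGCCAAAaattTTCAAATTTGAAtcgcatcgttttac
mcm-6, III:9794217-9794284, plus strand: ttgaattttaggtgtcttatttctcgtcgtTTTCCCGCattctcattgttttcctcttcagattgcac
mcm-7, V:4346988-4347055, plus strand: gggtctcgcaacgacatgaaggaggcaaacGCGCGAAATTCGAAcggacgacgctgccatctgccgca

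In this direction the same E2F word, GCGCGAAA, began 188 bp upstream of the start in pcn-1, 144 bp in mcm-3, 148 bp in mcm-7 and 131 bp in mcm-4. In mcm-5 the related GCGCCAAA began 194 bp upstream. A CHR word stood directly beside the E2F word in mcm-7, with 0 bases between them, and was 2 bases away in mcm-4, 4 in mcm-5, 5 in pcn-1 and 8 in mcm-3. In mcm-6 the words TTTCGCGC and TTTCCCGC began 247 and 120 bp upstream, both in the sense direction, and the nearest CHR word was 25 bases away. In cdt-1 a TTTCCCGC word on the other strand began 28 bp downstream of the annotated start, inside the transcript.

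At least 1 E2F word was found in 7 of the 10 promoters, against 4.69% of all protein-coding promoters. Both kinds of word within 20 bases of each other were found in 5 of the 10, a distance chosen after the positions were seen, against 1.13% of all. A CHR word alone is common: it was in all 10 promoters and in 68.9% of all promoters. Of the 7 genes with an E2F word, 4 had a thresholded peak and 3, mcm-3, mcm-5 and mcm-6, had none. The 3 genes without an E2F word in these 300 bases, mcm-2, cdc-6 and orc-2, had none either. Over all genes a thresholded promoter peak was found at 17.5% of the 936 with an E2F word and at 11.3% of the 19037 without, so most promoters with such a word had no LIN-13 peak. A match to a word is not evidence that a factor binds it.

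**Figure D1:**
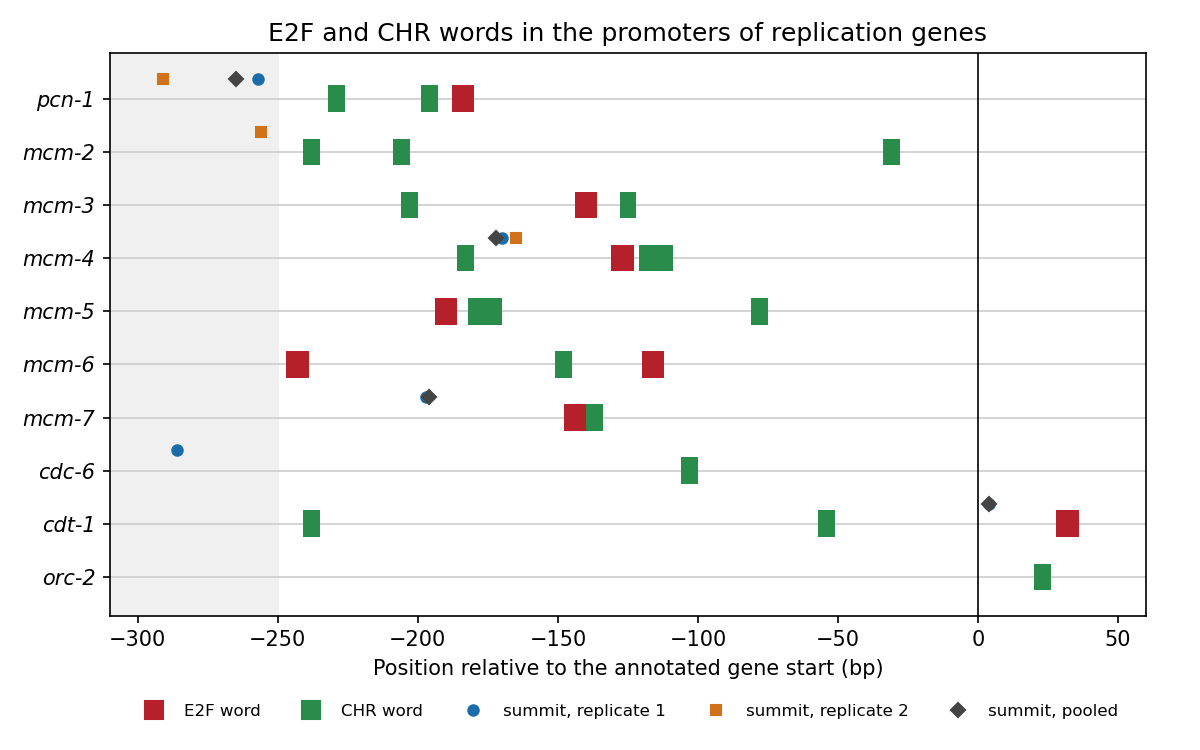
Positions of E2F words (red) and CHR words (green) in the promoter of each gene, in bp from the annotated start, from 250 bp upstream to 50 bp downstream. Marks above a line are promoter summits of rank 3040 or better in replicate 1 (circle), replicate 2 (square) and the pooled list (diamond, drawn last, which covers the replicate 1 mark at cdt-1); the grey band was not searched for words. The reader should see that mcm-3, mcm-5 and mcm-6 hold E2F words without such a summit, and that mcm-2 and cdc-6 have such a summit in 1 replicate alone without an E2F word.

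The strongest promoter peak belonged to pcn-1 (WBGene00003955, IV:4047937-4049448, minus strand), which encodes PCNA. Its rank was 327 in the pooled list, 426 in replicate 1 and 266 in replicate 2. Both replicates thus placed it among their strong entries, and 4.8% of the genes with any pooled promoter entry ranked stronger. The thresholded interval was IV:4049622-4049787 on ce11, between genes, with its summit 265 bp upstream of the start. Replicate summits lay 257 and 291 bp upstream, and no other protein-coding gene had that summit in its promoter window. The bases within 75 bp of the thresholded summit, in the direction of the gene and with CHR words in capitals, are shown because this is the best supported site among the 10 genes.
pcn-1, IV:4049638-4049788, minus strand: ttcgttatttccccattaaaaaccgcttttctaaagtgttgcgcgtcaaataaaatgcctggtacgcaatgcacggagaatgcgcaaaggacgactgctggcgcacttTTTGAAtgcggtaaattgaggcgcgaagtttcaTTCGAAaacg
The E2F word of pcn-1 began 77 bases from the summit, just beyond this window.

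By the closeness of ranks in the 3 lists (sum of absolute differences in log10 rank), the genes most like pcn-1 outside its own peak were wdr-46 (ranks 435, 275 and 323 in replicate 1, replicate 2 and the pooled list), vha-12 (412, 253 and 303) and T28B8.1 (386, 277 and 318). The sums were 0.029, 0.069 and 0.073. The measure rests on 2 replicates and a list made from them.

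**Figure D2:**
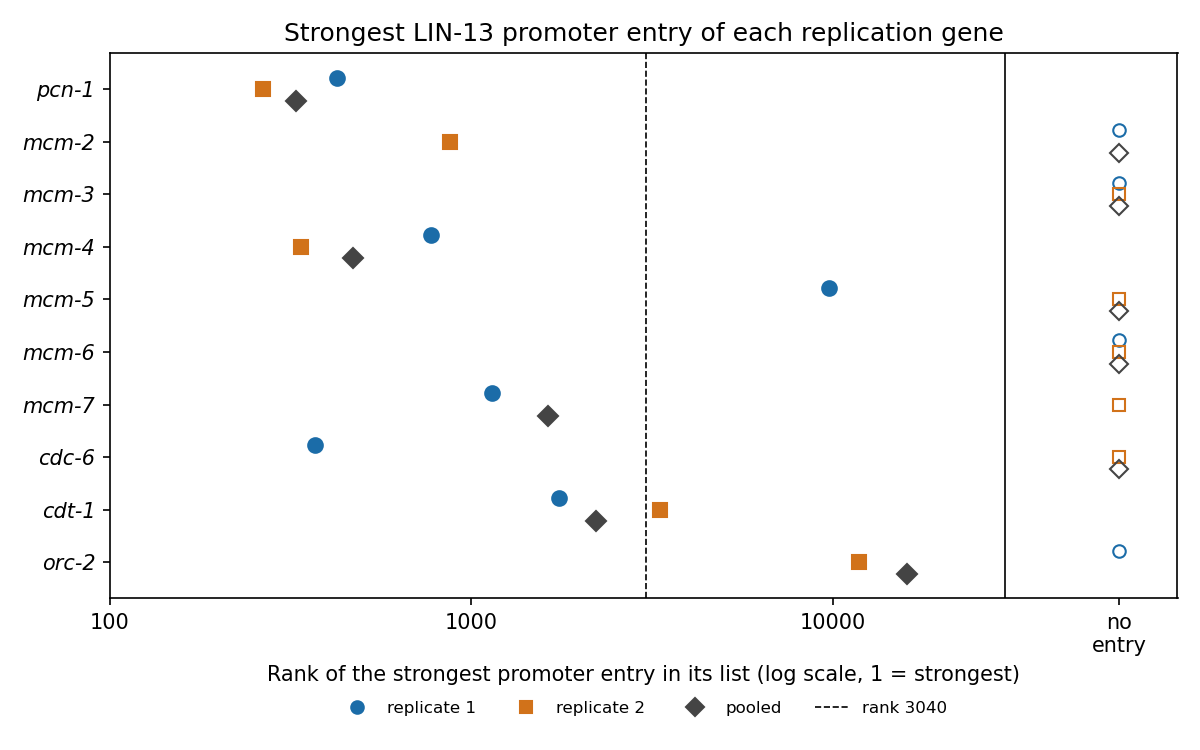
Rank of the strongest promoter entry of each gene (horizontal, log scale, 1 = strongest) in replicate 1, replicate 2 and the pooled list; the dashed line is rank 3040, the length of the thresholded list, and open marks right of the solid line mean that the list held no promoter entry. pcn-1 and mcm-4 lie left of the dashed line in both replicates, whereas mcm-2, mcm-7 and cdc-6 do so in 1 replicate and have no promoter entry in the other.

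Among the MCM subunit genes, mcm-4 (WBGene00003156, I:2318291-2321817, minus strand) had the strongest peak. Its rank was 472 in the pooled list, 775 in replicate 1 and 338 in replicate 2. Like pcn-1, it was among the strongest 3040 entries of both replicates. The thresholded interval I:2321911-2322052 lay between genes and its summit was 172 bp upstream of the start, 41 bases from the E2F word. The upstream neighbour on the same strand, Y39G10AR.32, ends 207 bp before mcm-4, and that summit fell in no other promoter window. A second and weak entry, 753 bp upstream, was listed in replicate 1 alone at rank 12693.

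The peak of mcm-7 (WBGene00003159, V:4347166-4349768, plus strand) rested on replicate 1. It ranked 1143 in replicate 1 and 1626 in the pooled list, and replicate 2 held no entry in the promoter window. The nearest replicate 2 entry had its summit 1232 bp upstream, inside a coding exon of figl-1, at rank 21383. The thresholded interval V:4346795-4347144 lay between genes with its summit 196 bp upstream of mcm-7, and the E2F word began 48 bases from it. The same summit lay in the promoter windows of the divergent neighbour hpo-18, 545 bp upstream of its start, and of figl-1, 971 bp upstream, so the peak is not particular to mcm-7 by position. Of the 3013 nuclear thresholded peaks, 0.929% overlapped no entry of replicate 2, and the mcm-7 peak was 1 of these 28.

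At mcm-2 (WBGene00003154, II:12001509-12006625, minus strand) the pattern was the reverse. Replicate 2 held an entry at rank 876, II:12006711-12007050, with its summit 256 bp upstream of the start and between genes. Replicate 1 and the pooled list held no entry in the promoter window. The nearest pooled entry had its summit 3627 bp upstream at rank 20490, and the nearest of replicate 1 lay 4441 bp upstream at rank 15386. Of the nuclear entries among the 3040 strongest of replicate 2, 1.20% overlapped no pooled entry, and the mcm-2 entry was 1 of these 36. The bases within 75 bp of that summit are shown because the deposited lists disagree about this site. Capitals mark CHR words.
mcm-2, II:12006806-12006956, minus strand: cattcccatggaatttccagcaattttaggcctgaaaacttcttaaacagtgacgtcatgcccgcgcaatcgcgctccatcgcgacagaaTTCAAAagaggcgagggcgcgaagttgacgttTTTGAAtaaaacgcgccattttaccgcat

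The remaining 3 MCM genes had little or nothing near their starts. For mcm-5 (WBGene00003157, III:4288264-4291266, minus strand) the sole entry within 5 kb of the start in any list was a weak one of replicate 1, at rank 9781, with its summit 266 bp upstream. For mcm-3 (WBGene00003155, V:15056719-15059599, minus strand) the nearest entries lay about 3 kb upstream, with a summit 3080 bp away in the pooled list (rank 16635) and 3073 bp away in replicate 2 (rank 13562). For mcm-6 (WBGene00003158, III:9794367-9798644, plus strand) the single entry was 4282 bp upstream in replicate 2, at rank 16890. Neither mcm-3 nor mcm-6 had a promoter entry in any list. These lists end at rank 30000, so weaker enrichment at these promoters was not detectable.

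The helicase loaders differed from each other. The peak of cdt-1 (WBGene00000413, I:3223160-3228104, minus strand), which encodes the licensing factor that is degraded once S phase begins, was at I:3227925-3228274. Its rank was 2215 in the pooled list, 1749 in replicate 1 and 3323 in replicate 2, so replicate 2 placed it just below its strongest 3040 entries. The summit lay at the same base in all 3 lists, 4 bp downstream of the annotated start, in an untranslated exon whose first codon is 137 bp from that start. The E2F word began 24 bases from it, and no other promoter window held that summit.

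For cdc-6 (WBGene00000382, I:4268070-4270287, minus strand), which encodes the ATPase that acts with CDT-1, replicate 1 held a strong entry that the other lists lack. It ranked 369, ahead of pcn-1 in that replicate, at I:4270525-4270608, with its summit 286 bp upstream of cdc-6. The summit was also 93 bp upstream of acin-1, the divergent neighbour. Replicate 2 had no entry within 5 kb of the cdc-6 start, and the nearest pooled entry lay 3366 bp downstream at rank 20640. Of the nuclear entries among the 3040 strongest of replicate 1, 3.46% overlapped no pooled entry, and 4 of the 105 such entries, that of cdc-6 among them, ranked 500 or better. The entry was 84 bp wide, where the commonest width in that list was 336 bp. A narrow width did not mark such entries. Of the 105 without a pooled entry 1.9% were narrower than 336 bp, against 8.01% of all nuclear entries among the 3040 strongest.

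At orc-2 (WBGene00003882, II:10873931-10877683, plus strand), a subunit gene of the origin recognition complex, the strong entries belonged by position to neighbours. A thresholded peak with its summit 1205 bp upstream had rank 680 in the pooled list, 804 in replicate 1 and 674 in replicate 2. It lay between cyn-4 and copz-1, 115 and 153 bp upstream of their starts, and copz-1 ends 134 bp before orc-2 on the same strand. A stronger peak, 4970 bp upstream, had rank 132 in the pooled list, 145 in replicate 1 and 118 in replicate 2, and lay in the promoter windows of cap-2 and gmps-1. In the orc-2 window itself the strongest pooled entry ranked 16086, over an untranslated or non-coding exon of copz-1, and that of replicate 2 ranked 11804. Replicate 1 had none.

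**Figure D3:**
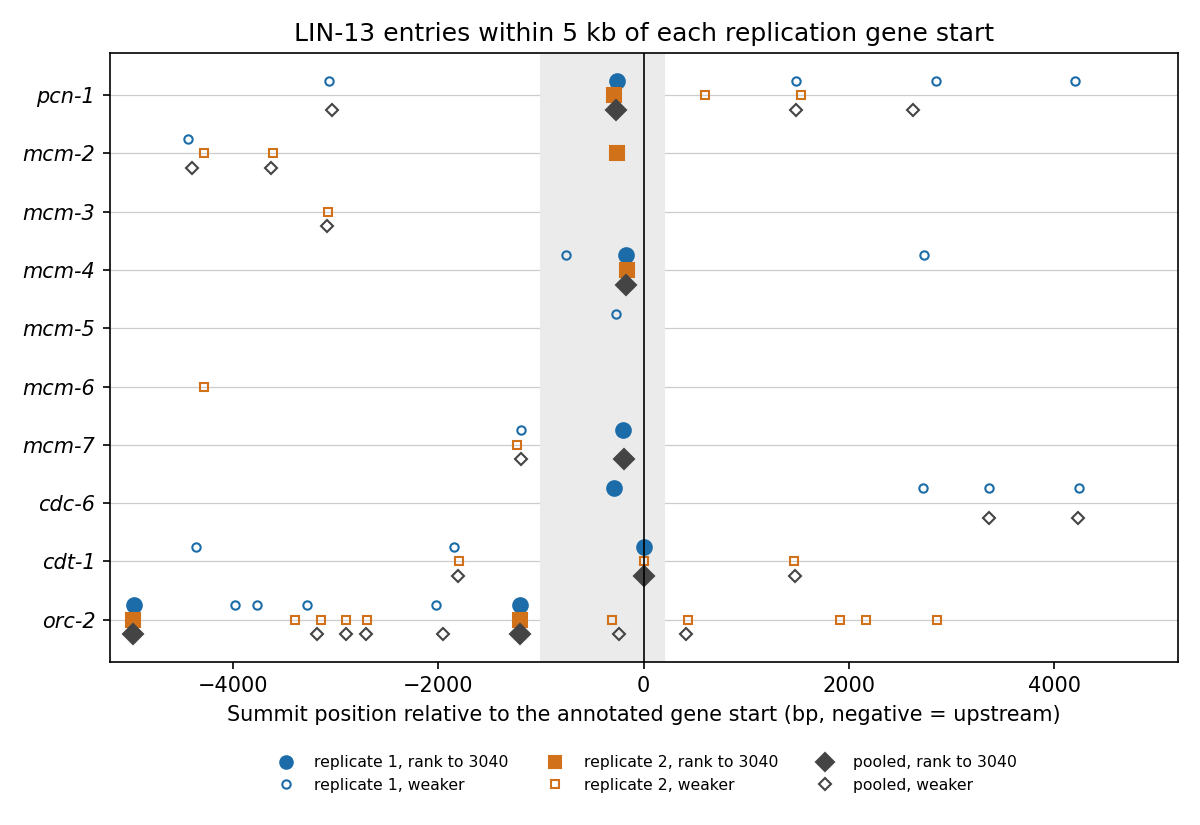
Summit positions of all entries within 5 kb of each annotated start (horizontal, bp, upstream negative) in replicate 1 (circles), replicate 2 (squares) and the pooled list (diamonds); filled marks rank 3040 or better, open marks are weaker, and the grey band is the promoter window. Filled marks lie inside the band at 6 genes and outside it at orc-2 alone, at 1205 and 4970 bp upstream in the pooled list.

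Counted over replicates, 5 of the 10 genes had a promoter summit among the 3040 strongest entries of replicate 1 (11.5% of all protein-coding genes) and 3 of the 10 among those of replicate 2 (11.3%). Both replicates reached that level at 2 genes, pcn-1 and mcm-4, and 6 genes did so in at least 1 replicate. Over all protein-coding genes these shares were 9.22% and 13.6%. Any promoter entry, however weak, was listed for 6 of the 10 genes in replicate 1 (38.6% of all genes), for 5 in replicate 2 (36.0%) and for 5 in the pooled list (36.3%). Within 5 kb of the start, 5 of the 10 genes had a thresholded summit, orc-2 being the addition, against 27.5% of all genes.

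In the 4 promoters with a thresholded peak the G or C content over the 300 bases was 44.0% in mcm-4, 42.7% in mcm-7, 41.0% in pcn-1 and 40.0% in cdt-1. Those without one ranged between 28.3% in orc-2 and 42.7% in mcm-6. Over all genes the median was 35.3% for promoters with a thresholded peak and 34.0% for those without. The part of base composition in the occupancy of these genes was not tested.

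The rest of the replication machinery was examined through a list of 57 gene names, of which 52 matched, 2 of them (pold-1 and pold-2) through their RefSeq symbols. Of the 52 genes, 22 (42.3%) had a thresholded promoter summit, against 11.6% of all protein-coding genes, at a median pooled rank of 1301. At 16 of the 22 a neighbouring gene had the strongest such summit in its window too. How often such sharing occurs over all protein-coding genes with a thresholded promoter summit was not counted, so it is no trait of these genes. The list was drawn up with earlier results of these data known and was not tested.

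Origin recognition and loading genes had a peak at 3 of 5: orc-1 (pooled rank 1939, shared with dhs-11), orc-3 (rank 1278) and gmn-1, the geminin gene, whose product restrains CDT-1 (rank 1846, with its summit 973 bp upstream and shared with Y75B8A.18 and Y75B8A.19). Helicase activation genes had one at 6 of 10. They included 3 of the 4 GINS genes, psf-1 (rank 2380, shared with R53.4), psf-2 (rank 1722, shared with zipt-1) and psf-3 (rank 2144), but not sld-5, and also sld-2 (rank 2044, shared with larp-5), mcm-10 (rank 1052) and dnsn-1 (rank 155, shared with C24H12.4). Polymerase and primase genes had one at 4 of 8, with pola-1 strongest (rank 216, shared with Y47D3A.1), then pri-2 (rank 1490, shared with W02D9.2), pold-1 (rank 1685, shared with kup-1) and div-1 (rank 2538, shared with cor-1).

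Clamp loader and fork genes had a peak at 9 of 19, among them the strongest of the whole machinery. The clamp loader gene rfc-4 ranked 96 in the pooled list and shared its peak with eef-1A.1. The fork gene ctf-4 ranked 104 (shared with eef-1G), tim-1 117 (shared with Y75B8A.23), the claspin gene clsp-1 125 (shared with eef-2) and the topoisomerase gene top-2 154 (shared with npp-3). In 3 of these 5 the partner encodes a translation elongation factor. That was noticed after the values were seen, and the share of such genes among all promoters with a peak was not counted. When each summit was given to its nearest start only, rfc-4 kept its peak, whereas ctf-4, tim-1, clsp-1 and top-2 did not. Further down were exo-1 (rank 761), crn-1 (rank 1075), dna-2 (rank 1324, shared with patr-1, with no promoter entry in replicate 2) and rfc-2 (rank 1822). The 5 nucleotide supply genes, rnr-1, rnr-2, dut-1, tyms-1 and dhfr-1, had 0 thresholded promoter peaks, and 4 of them hold an E2F word. The 5 genes for turnover of CDT-1 and of the helicase had 0 as well. Over all protein-coding genes the share was 11.6%, and it was 17.5% among those with an E2F word. With so few genes, a count of 0 is not set apart from these shares. With a window of 2000 bp upstream to 500 bp downstream, rnr-1 had a thresholded summit.

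In this list a thresholded peak was found at 8 of the 20 genes with an E2F word and at 14 of the 32 without. Among the 10 genes it was found at 4 of the 7 with such a word and at 0 of the 3 without, and the difference between these patterns was not tested. The list also held further genes with a strong entry in replicate 1 alone: orc-5 ranked 886, tipn-1 1611 and cul-4 2296, and replicate 2 and the pooled list held no promoter entry for these 3. They are named here because they share the pattern of cdc-6, and were picked after their values were seen. Over all protein-coding genes, 0.626% had a promoter summit among the strongest entries of replicate 1 that overlapped no pooled entry.

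**Figure D4:**
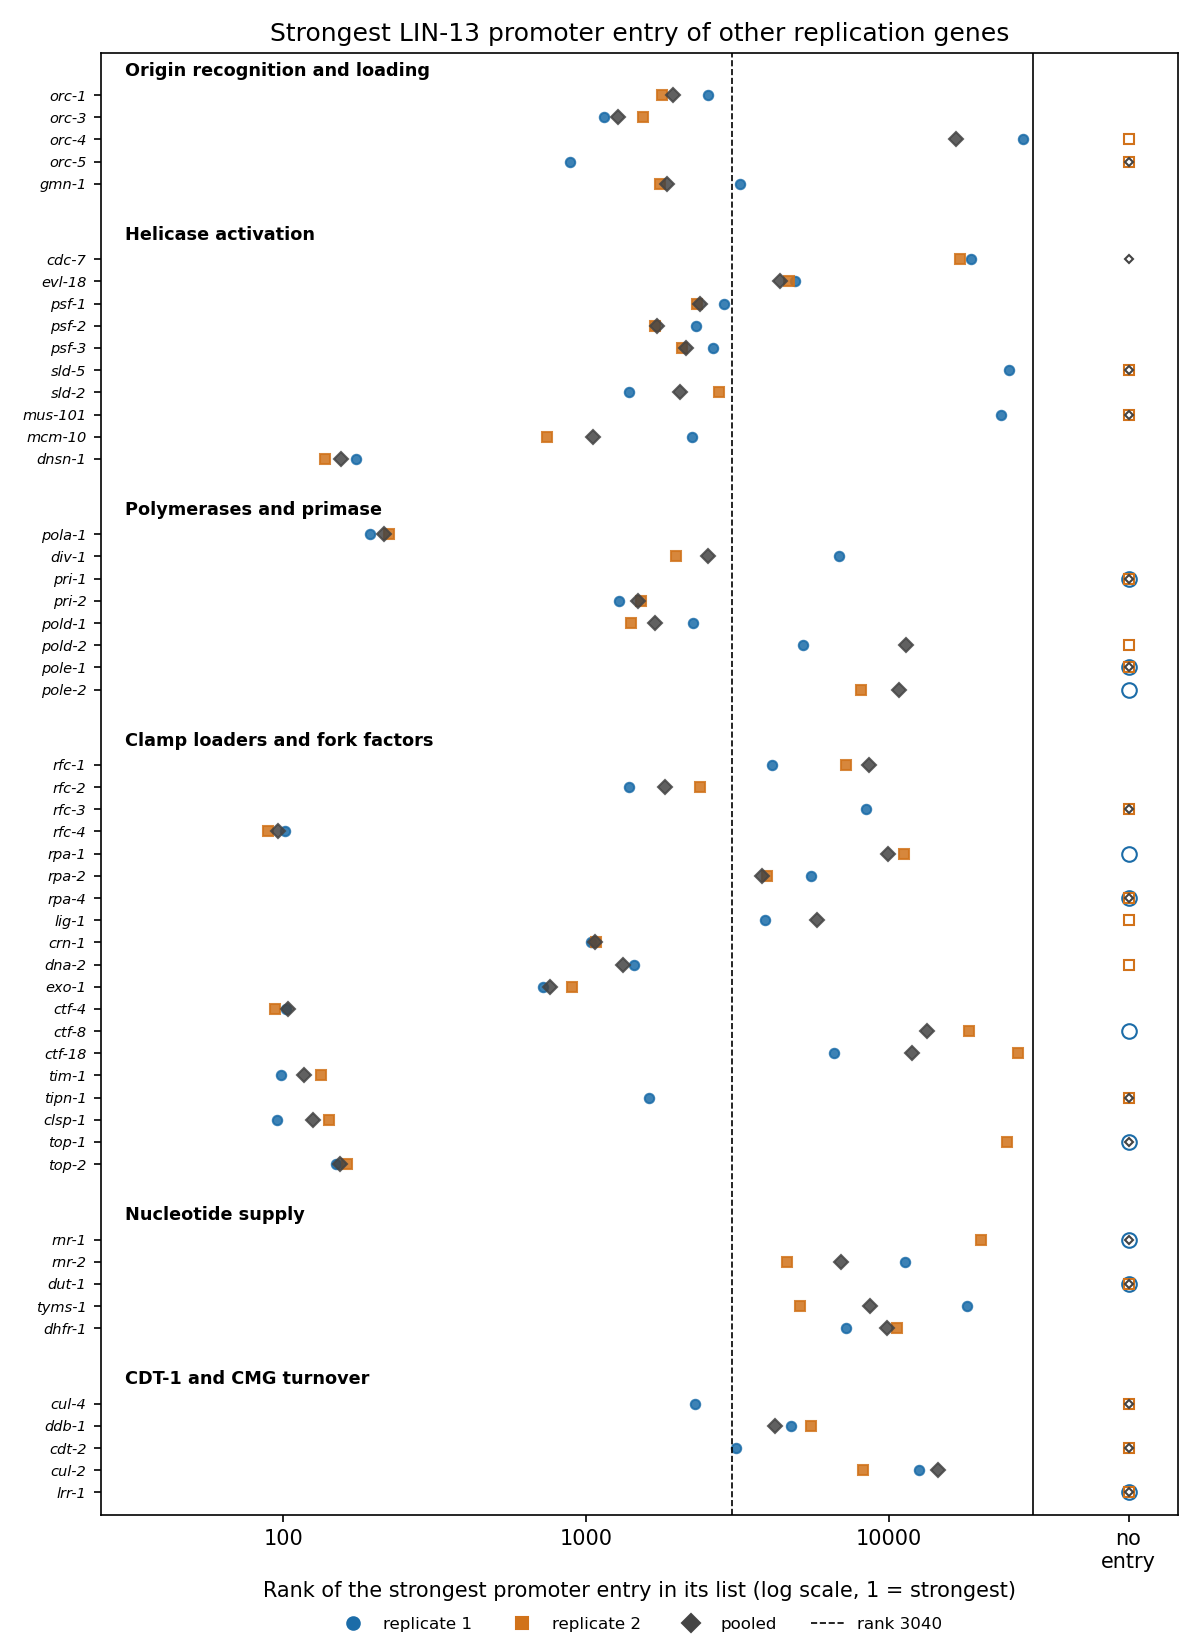
Rank of the strongest promoter entry (horizontal, log scale, 1 = strongest) of 52 other replication genes, grouped by role, in replicate 1 (circles), replicate 2 (squares) and the pooled list (diamonds); the dashed line is rank 3040, and open marks right of the solid line mean no promoter entry. rfc-4, ctf-4, tim-1, clsp-1, top-2, dnsn-1 and pola-1 form the strongest set, and no nucleotide supply gene lies left of the dashed line. The nucleotide supply genes are only 5, and 11.6% of all protein-coding genes had a thresholded promoter summit.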

How the data were processed

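The deposited narrowPeak lists on ce11 were used. Per the deposited file listings, the authors called entries against a control in each replicate and in both pooled, and thresholded them by the irreproducible discovery rate. Per the labels, fragments were 150 to 350 bp. For the aligner, the peak caller and the rate chosen, nothing is stated in the sources at hand. The control was not analysed here. Signal values, as deposited by the authors, have no stated scale and served only for ranks within a list. The deposited −log10 q values reach a ceiling of 2.99 in the pooled list, 2.83 in replicate 1 and 3.19 in replicate 2, and were not used for selection. The thresholded list was the 3040 strongest pooled entries.

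Genes were taken from Ensembl release 115 (WBcel235, the ce11 assembly) and sequence from the RefSeq genome of the same assembly; each gene had its outermost start, and every gene whose window held a summit was counted. Coordinates are 1-based. Entries were called overlapping at 1 bp. E2F and CHR words were exact matches on both strands, and words may overlap. Of 57 other replication gene names, 5 matched no symbol (cdc-45, sld-3, pold-3, rfc-5 and dcc-1). An unmatched name does not mean that its gene was left out, since the list may hold it under another symbol. The matched gene evl-18 may be the one meant by cdc-45, which was not assumed. It had no thresholded promoter summit, and its strongest promoter entry ranked 4361 in the pooled list, 4905 in replicate 1 and 4701 in replicate 2. No sequence is printed for the 3 genes on chromosome I. With 2 replicates of 1 group no test was made, and p-values are not given. The named genes are the 10, every other replication gene with a thresholded promoter summit, genes sharing such a summit, and the 3 closest to pcn-1 in rank; further names are marked where they appear, or are neighbours. The members, lists and words were chosen with earlier results of these data known. The promoter window was checked with planted positions, and the E2F word search with words planted in random sequence of A and T. CHR words and the lookup of summits in the lists were not part of these checks. Python 3.11.15, numpy 2.4.6, pandas 2.3.3 and matplotlib 3.10.9 were used.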

Additional observations from a re-analysis of the deposited data

How the results depend on the processing

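With the thresholded list reduced to its stronger entries, down to its median rank, 2 of the 10 genes kept a promoter peak (pcn-1 and mcm-4) in place of 4. With 2000 bp upstream to 500 bp downstream the count was 5, orc-2 being added, and it was 4, with the same genes, with 500 bp upstream to 100 bp downstream, with any transcript start, with the nearest start only and with interval overlap. Using the strongest 3040 entries of 1 replicate instead gave 3 to 5 genes. Replicate 2 alone gave pcn-1, mcm-4 and mcm-2, and replicate 1 alone gave pcn-1, mcm-4, mcm-7, cdt-1 and cdc-6. Summits within 5 kb then counted for 4 to 6 genes, and with 5 kb around the whole gene for 6, mcm-5 being added, against 5. Any promoter entry was listed for 5 to 6 genes by single replicates, against 5 in the pooled list. For the other 52 replication genes the count was 21 to 23 by single replicates, 20 and 26 with the smaller and larger windows, and 16 with the nearest start only, against 22. The nucleotide supply gene rnr-1 was among those added by the larger window. The genes lost with the nearest start only were ctf-4, tim-1, clsp-1, top-2, orc-1 and gmn-1. The share over all protein-coding genes is not given for the changed windows, any transcript start, the nearest start, interval overlap or the stronger entries. It is also not given for single replicates within 5 kb. Whether these counts moved relative to all genes therefore cannot be read from them. An E2F word lay within 75 bp of the thresholded summit at 3 of the 4 genes with a peak (5.68% of 3013 nuclear summits), within 50 bp at 2 (3.88%) and within 150 bp at 4 (8.86%). The ce10 lists were not used. Why strong entries of 1 replicate have no pooled entry was not tested, and without read counts no depth limit can be given.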

Other observations

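The arrangement seen in pcn-1, mcm-3, mcm-4, mcm-5 and mcm-7, an E2F and a CHR word within 20 bases of each other, was found in 225 promoters of the genome. A thresholded LIN-13 summit lay in the promoter window of 52 of these genes (23.1%), and 173 had none. The share was 11.6% over all protein-coding genes and 17.5% over all genes with an E2F word. Of the 52 genes, 49 lie outside the 10 genes in which the arrangement was first seen. The distance of 20 bases was set after the positions in the 10 genes were seen, and genes that share a summit are each counted. Outside the 10 genes, the strongest peaks at such promoters were at the shared promoter of kbp-4, a kinetochore gene, and rab-18, a small GTPase gene (pooled rank 70), and at lin-9 (rank 73), which encodes a core DREAM subunit. The replication genes tim-1 (rank 117), clsp-1 (rank 125, with eef-2) and top-2 (rank 154, with npp-3) followed, and then the nuclear pore gene npp-8 (rank 187) and the SUMO-conjugating enzyme gene ubc-9 (rank 326). These were named as the first in order of rank, after the values were seen, and no test was made.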
